A study of Homo sapiens with 6 samples.

Results

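SPEN, its paralogs RBM15 and RBM15B, the DNA-binding factor RBPJ and the genes CIR1, L3MBTL3 and KYAT1 were followed in HEK293T cells with and without valproic acid (VPA). SPEN was selected on its measured fall in these cells, so its change is given as a description with no test. The others were chosen by name, as relatives of SPEN or as genes listed as RBPJ partners, with earlier results of these data known. These 7 genes are among the 47470 genes in the count files, and all 7 were among the 15298 genes with enough counts to be tested. HEK293T is an adherent line derived from human embryonic kidney and expressing SV40 large T antigen, and VPA is an inhibitor of histone deacetylases. The 3 control libraries came from untreated cells, with the genotype given as WT and no treatment. The 3 VPA-treated libraries came from the same line after 1 day in 1 mM VPA, with the genotype field repeating the treatment. No vehicle control is named, all libraries came from a single immortalised line, and the labels do not say whether replicates were separate cultures. The p-values therefore measure the spread between these libraries, which may be technical.

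RBPJ, also known as CBF1 or CSL, is the DNA-binding factor of Notch signalling. When a Notch receptor is cleaved, its intracellular part joins RBPJ and a Mastermind protein on DNA and recruits acetyltransferases such as EP300. Without that signal RBPJ can bind corepressors, among them SPEN (also SHARP or MINT) and L3MBTL3. SPEN is a very large nuclear protein with RNA recognition motifs and a C-terminal SPOC domain, and it binds the corepressor NCOR1, which brings the histone deacetylase HDAC3. It also binds the Xist RNA in X inactivation. RBM15 and RBM15B share the domain layout of SPEN and take the m6A methyltransferase complex to its RNAs. CIR1 binds RBPJ and the SIN3A and SAP30 corepressor proteins, and L3MBTL3 is a methyl-lysine reader that recruits the demethylase KDM1A. KYAT1 encodes a kynurenine aminotransferase, a metabolic enzyme, and was included as listed.

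Counts on genes totalled 18622267 to 18828495 per library, so depth was close to equal. Values below are normalized counts, the counts after TMM scaling (edgeR's correction for library composition) set to the mean library, with the SD over n = 3 libraries per condition. Log2 fold changes are VPA-treated over untreated, and adjusted p-values are from edgeR's quasi-likelihood test with Benjamini-Hochberg adjustment over the 15298 tested genes. Of 6 markers set for these cells, VIM, KRT8, KRT18, NEFL, NEFM and PAX2 were all present, from 29.5 normalized counts of PAX2 to 10729 of VIM in untreated cells. VPA-treated cells had less VIM (log2 fold change -0.27) and more of the other 5 (0.22 to 2.26), and the part of these shifts in the results below was not tested. Markers of blood, endothelium and liver (PTPRC, CD3E, PECAM1 and ALB) had 1 to 12 counts over all 6 libraries. The muscle marker DES averaged 6.61 ± 2.43 normalized counts without VPA and 36.1 ± 3.76 with it (SD, n = 3 each, log2 fold change 2.43, adjusted p = 2.30e-07 in edgeR), and its part in the results was not tested either. DES had enough counts to be tested through the VPA-treated libraries alone. In bulk RNA, fewer cells with a transcript and less of it per cell cannot be told apart.

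The starts of 2 members and 2 RBPJ target genes are shown because they hold the short sequence that RBPJ is known to bind, so that the transcripts counted here can be read next to the letters at their promoters. Each is a 300-base stretch around a RefSeq transcription start on GRCh38.p14, written 5′ to 3′ on the gene's strand, with TGGGAA or its reverse complement TTCCCA in capitals. SPEN is at chr1:15847457-15847756 on the plus strand, L3MBTL3 at chr6:130019394-130019693 on the plus strand, HES1 at chr3:194135898-194136197 on the plus strand and HES5 at chr1:2530214-2530513 on the minus strand.
SPEN: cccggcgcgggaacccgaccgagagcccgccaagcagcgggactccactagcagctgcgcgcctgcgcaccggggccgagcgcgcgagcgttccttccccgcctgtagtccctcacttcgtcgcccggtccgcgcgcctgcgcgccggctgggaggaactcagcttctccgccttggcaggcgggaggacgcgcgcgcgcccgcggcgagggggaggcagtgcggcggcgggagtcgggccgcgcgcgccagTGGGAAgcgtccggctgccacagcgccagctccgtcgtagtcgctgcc
L3MBTL3: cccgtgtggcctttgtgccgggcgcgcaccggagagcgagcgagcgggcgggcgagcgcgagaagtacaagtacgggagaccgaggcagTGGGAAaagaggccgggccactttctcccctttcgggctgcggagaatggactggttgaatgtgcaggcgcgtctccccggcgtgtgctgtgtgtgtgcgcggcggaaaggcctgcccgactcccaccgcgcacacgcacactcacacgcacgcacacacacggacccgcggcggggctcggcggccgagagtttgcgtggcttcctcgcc
HES1: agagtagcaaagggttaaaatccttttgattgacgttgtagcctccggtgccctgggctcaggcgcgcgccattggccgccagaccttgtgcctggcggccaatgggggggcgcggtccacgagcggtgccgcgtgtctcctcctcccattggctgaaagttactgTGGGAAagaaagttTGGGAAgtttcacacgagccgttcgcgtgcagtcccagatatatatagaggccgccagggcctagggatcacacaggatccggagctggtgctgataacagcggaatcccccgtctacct
HES5: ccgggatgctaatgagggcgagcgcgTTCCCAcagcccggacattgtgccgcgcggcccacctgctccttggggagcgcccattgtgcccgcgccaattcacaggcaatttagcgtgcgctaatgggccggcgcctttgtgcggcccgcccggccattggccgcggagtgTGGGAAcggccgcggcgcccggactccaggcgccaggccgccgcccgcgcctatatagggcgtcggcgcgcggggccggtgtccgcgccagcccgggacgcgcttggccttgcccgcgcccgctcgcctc

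Several nested forms were searched on both strands, TGGGAA, the longer GTGGGAA and the longest CGTGGGAA. Of all 35116 RefSeq promoters of this length, 24.0% held TGGGAA, 6.25% GTGGGAA and 0.826% CGTGGGAA. Of the 7 members 6 matched the promoter table by symbol, with 14 promoters between them, and CIR1 did not. TGGGAA was in 6 of the 14 promoters, of SPEN, RBM15, RBPJ, KYAT1 and L3MBTL3. GTGGGAA was in 3 of them, of SPEN, RBPJ and L3MBTL3. In SPEN it began 1 base after the start base (counted as 0), inside the transcript, and in the printed L3MBTL3 promoter 161 bases before it for TGGGAA and 162 for GTGGGAA. The L3MBTL3 promoter at the RefSeq gene start, chr6:130018331-130018630, had no match, and that at chr6:130018810-130019109 had TGGGAA alone, at -201. The RBPJ promoter at chr4:26319496-26319795 alone of the 14 held CGTGGGAA, on the minus strand from position -115. RBM15B had no match in its promoter. The promoter of SPEN held 50 CpG dinucleotides against a median of 25 over the promoters of tested genes, and 77.0% of its bases were G or C. These matches describe the letters in the windows only.

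SPEN was the member with the most counts in untreated cells and the member that fell furthest. It spans chr1:15847707-15940456 on the plus strand (RefSeq, GRCh38.p14). The untreated libraries held 15646, 14822 and 14854 normalized counts and the VPA-treated libraries 6668, 6617 and 6525. All VPA-treated libraries were below all untreated ones, and the gap between the groups was far wider than the spread within either. The means were 15108 ± 467 and 6603 ± 72.7 (SD, n = 3 each), which gave -1.19 as the log2 fold change (SE 0.041), and the SPEN signal fell by 56.3%. No test is attached to this value, because SPEN was picked for it.

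SPEN ranked 197 among tested genes by mean count. Its place by fold change, like the fall itself, is a description of the value it was chosen for. Of the 11064 tested genes that averaged 100 or more normalized counts, 4 were at or below it with SPEN included, and of the 4640 that averaged 1000 or more, 2 were, SPEN and ADI1 (-1.62). Of the 618 tested genes that averaged 5000 or more normalized counts, none but SPEN had a log2 fold change as low, and the next lowest was SLIT2, a secreted axon guidance protein, at -1.06. Well-counted genes as a class leaned downward, with a median of -0.25 in this group, where 80.7% were lower and 4.85% higher at an adjusted p under 0.05. The 260 genes within a factor of 1.5 of the mean count of SPEN had a median of -0.26, and 0 of them were at or below it. The median log2 fold change over all tested genes was 0.0058.

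An antisense transcript, SPEN-AS1, starts inside the first part of SPEN on the opposite strand. It had 211, 209 and 190 normalized counts in untreated and 108, 89.5 and 81.3 in VPA-treated libraries. It was thus lower in each VPA-treated library than in any untreated one, with a log2 fold change of -1.13 (SE 0.11, adjusted p = 1.71e-08 in edgeR). The annotated exons share 40 of the 12385 bases of the main SPEN transcript, and whether the counting used strand is not given in the sources used here. The nearest tested genes beyond it moved by less and in opposite directions. UQCRHL, the nearest before SPEN, had a log2 fold change of -0.21 (adjusted p = 0.0320 in edgeR), and ZBTB17, 1413 bases after it, had 0.33 (adjusted p = 0.000269 in edgeR).

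The paralogs of SPEN changed by far less. RBM15 (chr1:110339377-110346677, plus strand) had 859, 841 and 791 normalized counts in untreated and 866, 809 and 723 in VPA-treated libraries. The groups overlapped, with means of 830 ± 35.1 and 800 ± 72.1 (SD, n = 3 each). Its log2 fold change was -0.05 (SE 0.062, adjusted p = 0.467 in edgeR), and its sign changed with the scaling of the libraries and without VPA replicate 3, where it was 0.013.

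RBM15B (chr3:51391285-51397908, plus strand), a gene without introns, was slightly lower after VPA. The untreated libraries held 3639, 3768 and 3651 normalized counts and the VPA-treated ones 3311, 3128 and 3027. Every VPA-treated library was below every untreated one. The means were 3686 ± 71.4 and 3155 ± 144 (SD, n = 3 each), which gave -0.22 as the log2 fold change (SE 0.042, adjusted p = 8.40e-05 in edgeR), which turned to 0.050 when libraries were scaled to ribosomal protein genes. Genes within a factor of 1.5 of its mean count had a median of -0.17, and 37.6% of these 1284 genes were at or below RBM15B. The 3′ end of DCAF1, a ubiquitin ligase subunit gene on the opposite strand, shares 1325 of its 6624 exon bases. DCAF1 was also lower, at -0.33 (adjusted p = 6.59e-07 in edgeR), and whether reads in the shared stretch were counted or set aside depends on the strand setting, which is not stated.

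RBPJ itself (chr4:26105449-26435131, plus strand) changed little. It had 1881, 1893 and 1963 normalized counts in untreated and 1673, 1732 and 1710 in VPA-treated libraries. The groups did not overlap, but they lay close together. The means were 1912 ± 44.7 and 1705 ± 30.2 (SD, n = 3 each), which gave -0.17 as the log2 fold change (SE 0.043, adjusted p = 0.00213 in edgeR), which was 0.11 with ribosomal protein scaling. The 2426 genes of like count had a median of -0.12.

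CIR1, at chr2:174348022-174395712 on the minus strand, carries the current RefSeq symbol CIRSR. Its libraries held 398, 358 and 361 normalized counts before and 302, 288 and 329 after VPA. Every VPA-treated library was lower than every untreated one. The means were 372 ± 22.6 and 306 ± 21.0 (SD, n = 3 each), which gave -0.28 as the log2 fold change (SE 0.076, adjusted p = 0.00278 in edgeR). It was -0.15 with library totals (adjusted p = 0.102) and -0.0072 with ribosomal protein scaling (adjusted p = 0.944), where it did not pass. Genes of like count had a median of 0.08, and 12.2% of those 2329 genes were at or below CIR1. Its neighbour SP9, a developmental transcription factor 9522 bases away, had a log2 fold change of -0.91 (adjusted p = 4.89e-08 in edgeR), while SCRN3, whose start lies 18 bases from that of CIR1, had 0.19 (adjusted p = 0.00899).

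L3MBTL3 (chr6:130018581-130141438, plus strand) went the other way. The untreated libraries held 389, 416 and 425 normalized counts and the VPA-treated ones 724, 701 and 831. All VPA-treated libraries were above all untreated ones, with VPA replicate 3 the highest. The means were 410 ± 18.7 and 752 ± 69.7 (SD, n = 3 each), a 1.83-fold increase (log2 fold change 0.88, SE 0.069, adjusted p = 4.63e-10 in edgeR). Of 2915 genes of like count, 95.4% were at or below it, and their median was -0.02. This increase stayed under the study's threshold of a log2 fold change of 1, except with library totals (1.01) or ribosomal protein scaling (1.15). The nearest tested gene after it, TMEM200A, rose from few counts by 3.27 on the log2 scale (adjusted p = 6.72e-09 in edgeR), and ARHGAP18 before it had 0.25 (adjusted p = 0.0116). TMEM200A averaged only 22.7 normalized counts over all libraries, so with this rise it had enough counts to be tested through the VPA-treated libraries.

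KYAT1 (chr9:128832942-128882523, minus strand) was close to the limit of what these libraries could count. Its raw counts were 12, 8 and 8 in untreated and 11, 18 and 20 in VPA-treated libraries, and the groups overlapped. The normalized means were 9.72 ± 2.33 and 15.7 ± 4.53 (SD, n = 3 each), which gave 0.68 as the log2 fold change (SE 0.33, adjusted p = 0.0813 in edgeR). Without VPA replicate 1 it was 0.90 (adjusted p = 0.0301). It passed the filter on low counts through 3 VPA-treated libraries and 1 untreated library. A read-through gene, KYAT1-SPOUT1, covers 1667 of the 1971 bases (84.6%) of its main transcript on the same strand. Reads that fit more than 1 gene are set aside in this kind of counting, so the level of KYAT1 cannot be read from these counts. KYAT1-SPOUT1 had 11 counts over all libraries, and SPOUT1 was listed at 0 in each.

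**Figure D1:**
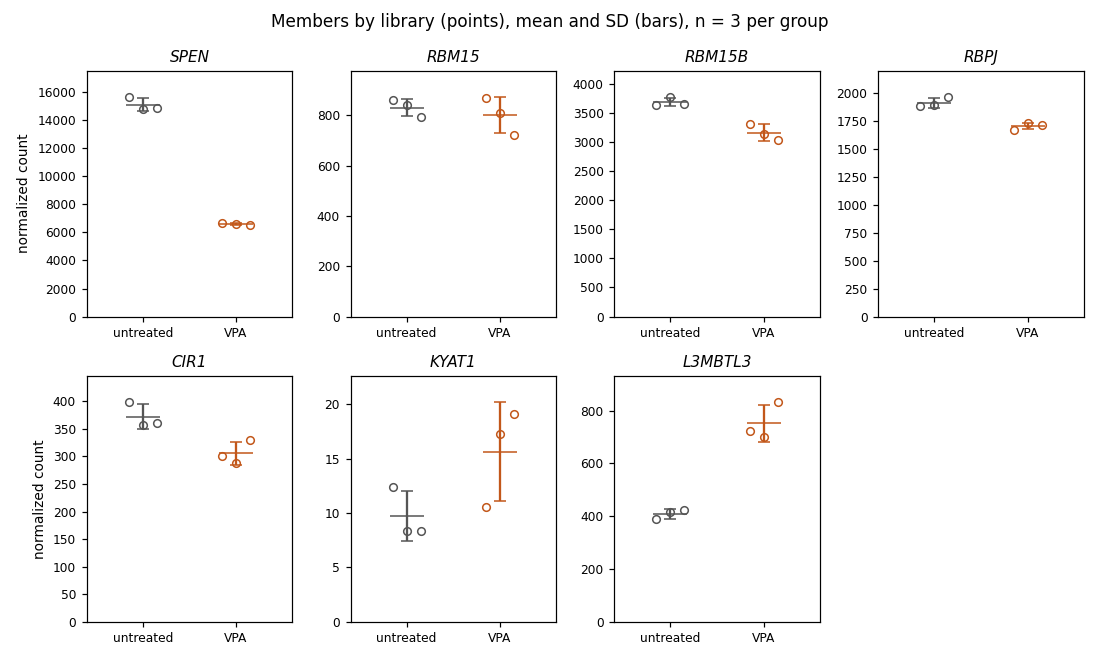
Normalized counts (y axis, linear from 0, a separate scale per panel) of the 7 members in 3 untreated and 3 VPA-treated libraries, with points for libraries and bars for mean and SD. SPEN drops from 15108 to 6603 and L3MBTL3 climbs from 410 to 752, while RBM15B, RBPJ and CIR1 shift by little and RBM15 and KYAT1 overlap. With ribosomal protein scaling the small shifts of RBM15B and RBPJ turn upward and that of CIR1 is -0.0072.

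Of the 6 members other than SPEN, 1 was higher (L3MBTL3) and 3 were lower (RBM15B, RBPJ and CIR1) at an adjusted p under 0.05 in edgeR. Over all tested genes 32.9% were higher and 30.0% lower by the same call, so a count of 4 in 6 is near the background. With the study's added threshold of a log2 fold change of 1, none of the 6 passed, against 12.0% higher and 0.503% lower over all tested genes. The median log2 fold change of the 6 was -0.11. The lower calls depended on the scaling. With library totals only L3MBTL3 and KYAT1 were called, both higher, and with ribosomal protein scaling 4 were higher and 0 lower. Scaling moved the median of all genes as well, to 0.14 for library totals and 0.28 for scaling by ribosomal protein genes. Set against that median, the members differed very little between the 5 scalings. A scaling shifts all genes by nearly the same amount, so this follows from the subtraction and is no check of the members. SPEN was at -1.20 relative to that median in each, RBM15B was at -0.23, RBPJ at -0.17, CIR1 at -0.29, RBM15 at -0.06 and L3MBTL3 at 0.87.

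**Figure D2:**
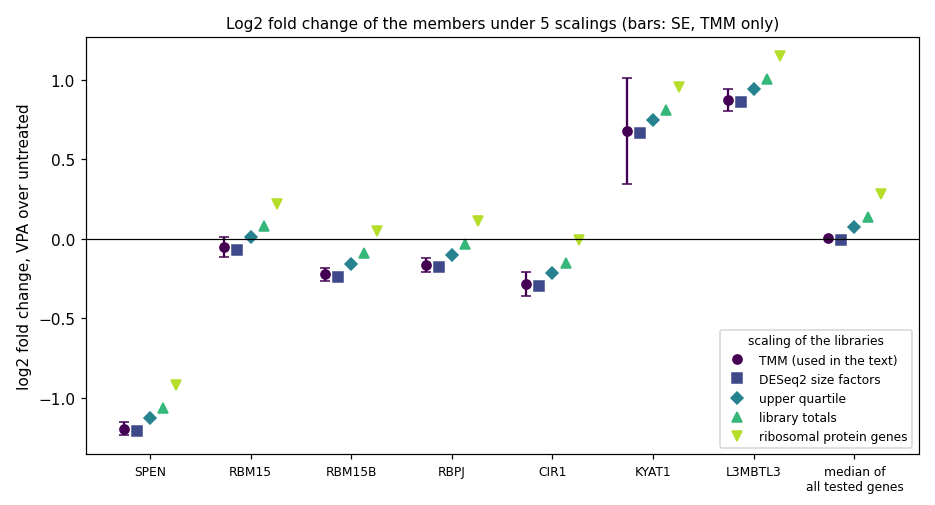
Log2 fold changes (y axis, VPA-treated over untreated) of the members and the median of all tested genes under 5 scalings of the libraries, with SE bars on the TMM values. SPEN stays between -1.21 and -0.92 and L3MBTL3 between 0.86 and 1.15, whereas RBM15, RBM15B and RBPJ cross 0 under some scalings.

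Levels between genes were compared as normalized counts per kilobase of the main transcript. In untreated cells the order was SPEN (1220 ± 37.7), RBM15B (556 ± 10.8), RBPJ (354 ± 8.28), RBM15 (246 ± 10.4), CIR1 (194 ± 11.8) and L3MBTL3 (97.5 ± 4.45), with the SD over n = 3. KYAT1 was left out of this order, since its level could not be read. No neighbours in this order overlapped between libraries. After VPA the SPEN level per kilobase was 533 ± 5.87, near RBM15B at 476 ± 21.7, although the values of both genes still did not overlap. L3MBTL3, at 179 ± 16.6, moved past CIR1 at 160 ± 11, and the libraries of this pair overlapped. These levels assume 1 transcript length per gene.

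Ratios of raw counts within a library need no scaling. For each count of RBPJ there were 7.91 ± 0.38 counts of SPEN in untreated and 3.87 ± 0.098 in VPA-treated libraries (SD, n = 3 each). Against NCOR1 the ratio of SPEN went from 3.44 ± 0.11 to 1.63 ± 0.041, and against RBM15B from 4.10 ± 0.19 to 2.10 ± 0.073. These ratios carry the fall that chose SPEN and were not tested. The ratio of L3MBTL3 to RBPJ was 0.207, 0.220 and 0.216 in untreated and 0.433, 0.404 and 0.486 in VPA-treated libraries. Its groups did not overlap, and the difference was 1.04 on the log2 scale (two-sided exact permutation p = 0.1, adjusted p = 0.25 over 5 ratios). RBM15 to RBM15B was 0.225 ± 0.0098 in untreated and 0.253 ± 0.012 in VPA-treated libraries (log2 difference 0.17, exact permutation p = 0.1, adjusted p = 0.25). The smallest p that 3 against 3 libraries can give is 0.1, so neither can pass a threshold of 0.05. The ratios of CIR1, RBM15 and RBM15B to RBPJ overlapped between the groups, with log2 differences of -0.12, 0.11 and -0.06 (exact permutation p = 0.3, 0.4 and 0.3).

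**Figure D3:**
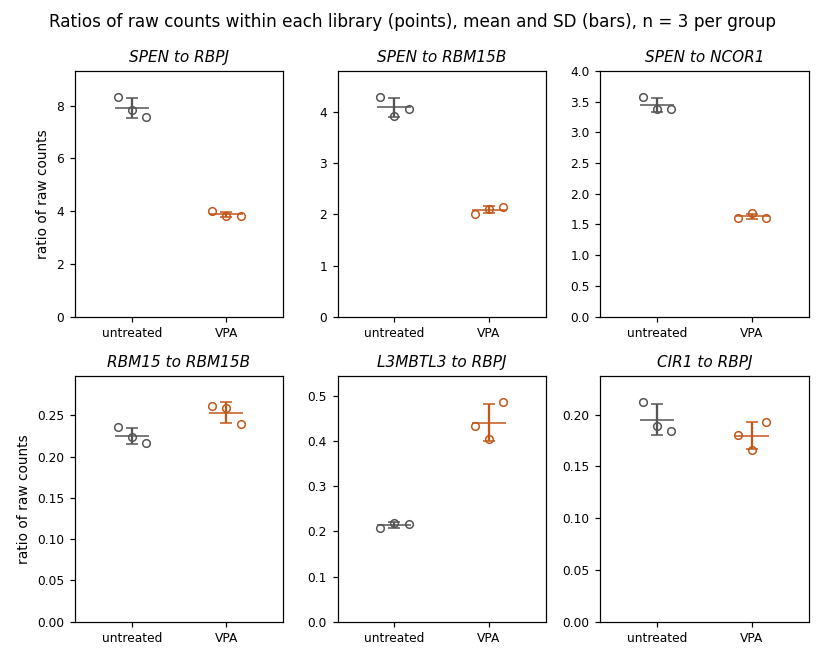
Ratios of raw counts of member genes within each library (y axis, linear from 0), with points for the 3 untreated and 3 VPA-treated libraries and bars for mean and SD. SPEN to RBPJ goes from 7.91 to 3.87, L3MBTL3 to RBPJ goes from 0.214 to 0.441, and CIR1 to RBPJ overlaps between the groups.

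Groups of genes that work with the members are described next. Their lists were drawn up from known function with earlier results of these data known, and each is given by its counts beside the background shares of 32.9% higher and 30.0% lower and the median of 0.0058 over all tested genes. That background is not matched for count, and many list genes averaged 1000 or more normalized counts. Of the 4640 tested genes at that level, 57.4% were lower and 14.6% higher at an adjusted p under 0.05 in edgeR, with a median of -0.15. Of the 33 list genes called lower, 20 had a positive log2 fold change when libraries were scaled to ribosomal protein genes and 2 when scaled to their totals. The 18 called higher stayed positive under all 4 other scalings, but these could hardly turn them. Upper quartile, library totals and ribosomal protein scaling moved all genes upward (medians 0.071, 0.14 and 0.28), and DESeq2 size factors moved them only slightly downward (-0.0081). In the NCOR-HDAC3 module, through which SPEN brings histone deacetylation, 5 genes were tested, 1 was higher and 4 lower, with a median of -0.22. NCOR1, the large docking corepressor, held 4380, 4378 and 4401 normalized counts in untreated and 4136, 3942 and 4065 in VPA-treated libraries, a log2 fold change of -0.12 (adjusted p = 0.0126 in edgeR) that turned to 0.016 for library totals and to 0.16 for scaling by ribosomal protein genes. This call was lost without VPA replicate 2 (-0.10). HDAC3, the catalytic subunit, had a log2 fold change of -0.26 (adjusted p = 2.82e-05), which was 0.014 with ribosomal protein scaling. TBL1XR1 and GPS2, scaffold subunits, had -0.30 and -0.22 (the latter 0.057 under that scaling), and TBL1X, on the X chromosome, was listed at 0 in every library. CORO2A, an actin-binding subunit, rose from 223 ± 5.03 to 637 ± 20.5 (log2 fold change 1.51, adjusted p = 3.49e-14 in edgeR).

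Other RBPJ corepressors moved little, with 12 tested, 1 higher, 4 lower and a median of -0.10. CTBP1, a corepressor found in RBPJ complexes, had a log2 fold change of -0.16 (adjusted p = 0.00608 in edgeR) and 0.11 with ribosomal protein scaling, and its call was lost without VPA replicate 3 (-0.12). SAP30, a SIN3 complex subunit and CIR1 partner, had -0.25 (adjusted p = 0.00221), with 0.028 under that scaling. SNW1 and SIN3A were the remaining lower genes, at -0.21 and -0.15, and were at 0.067 and 0.12 under it. KDM1A, the demethylase that L3MBTL3 recruits, was at 3941 ± 253 and 3838 ± 101 (SD, n = 3 each) and did not pass the test (log2 fold change -0.04, adjusted p = 0.479 in edgeR), and its sign changed with 3 of the other scalings. RITA1, which exports RBPJ from the nucleus, rose by 0.27 on the log2 scale (adjusted p = 4.39e-05 in edgeR). FHL1, whose KyoT2 form is an RBPJ corepressor, and NKAP, a repressor of Notch target genes, are X-linked and were listed at 0. So were TBL1X, KDM6A and SCML2, the other X-linked genes of the lists. Whether genes of this chromosome were counted is not stated, so these zeros do not show that the transcripts were absent.

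All 11 tested genes for Notch receptors and RBPJ coactivators passed the adjusted p, 4 of them higher and 7 lower, with a median of -0.22. The receptors differed among themselves. NOTCH3 had 1247, 1104 and 1054 normalized counts in untreated and 2715, 2360 and 2363 in VPA-treated libraries, with no overlap (log2 fold change 1.13, SE 0.064, adjusted p = 1.35e-10 in edgeR). NOTCH1 went from 675 ± 51.8 to 800 ± 50.2 (SD, n = 3 each), or 0.24 on the log2 scale (adjusted p = 0.00197 in edgeR). NOTCH2, with the most counts per kilobase of the receptors, went from 8084 ± 106 to 6670 ± 70.9 (SD, n = 3 each, log2 fold change -0.28, adjusted p = 1.88e-06). The Mastermind genes also split. MAML1 had a log2 fold change of -0.32 (adjusted p = 3.90e-07 in edgeR), and MAML2 and MAML3, which have far fewer counts, had 0.90 and 0.61. The acetyltransferases that the activated complex recruits were all lower with TMM. KAT2A (GCN5) fell from 3974 ± 94.4 to 2189 ± 77.0 (SD, n = 3 each), or -0.86 on the log2 scale (adjusted p = 1.27e-13 in edgeR). CREBBP, EP300 and KAT2B had -0.52, -0.22 and -0.21, of which EP300 and KAT2B turned to 0.053 and 0.068 with ribosomal protein scaling. KMT2D, an H3K4 methyltransferase, was at -0.30 (adjusted p = 4.37e-06).

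The RBPJ target genes, which SPEN and L3MBTL3 are known to hold down when Notch is silent, moved in both directions. Of 9 tested genes 4 were higher, 1 was lower and 4 did not pass, with a median of 0.04. HES1, the best known target and a transcriptional repressor, held 365, 370 and 324 normalized counts in untreated and 262, 237 and 196 in VPA-treated libraries. It was lower in each VPA-treated library, with means of 353 ± 25.3 and 232 ± 33.4 (SD, n = 3 each, log2 fold change -0.61, SE 0.093, adjusted p = 7.07e-06 in edgeR). HEY1, the target with the most counts, was at 5519 ± 70.5 and 5680 ± 160, and the groups overlapped (log2 fold change 0.04, adjusted p = 0.367). HEYL, named after its values were seen, had 283, 277 and 292 normalized counts before and 465, 498 and 461 after VPA, a log2 fold change of 0.74 (adjusted p = 6.18e-09 in edgeR). The largest fold changes were in targets with few counts. DTX1, a ubiquitin ligase of the Notch pathway, had 4.14, 6.27 and 1.05 normalized counts in untreated and 71.8, 56.8 and 69.8 in VPA-treated libraries (log2 fold change 4.07, SE 0.31, adjusted p = 1.85e-10 in edgeR). HES7, of the segmentation clock, went from 5.55 ± 3.15 to 65.8 ± 10.1 (log2 fold change 3.54, adjusted p = 6.74e-10) and HES5, a neural progenitor repressor, from 12.5 ± 3.19 to 25.6 ± 2.48 (SD, n = 3 each, log2 fold change 1.02, adjusted p = 0.00209). DTX1 and HES7 passed the filter on low counts through the VPA-treated libraries alone. HES5 was short of that filter in untreated replicate 1 (9.31 normalized counts) and passed it with the VPA-treated libraries, where it was higher. With at least 10 counts required in every library, 1 target was higher and 1 lower.

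**Figure D4:**
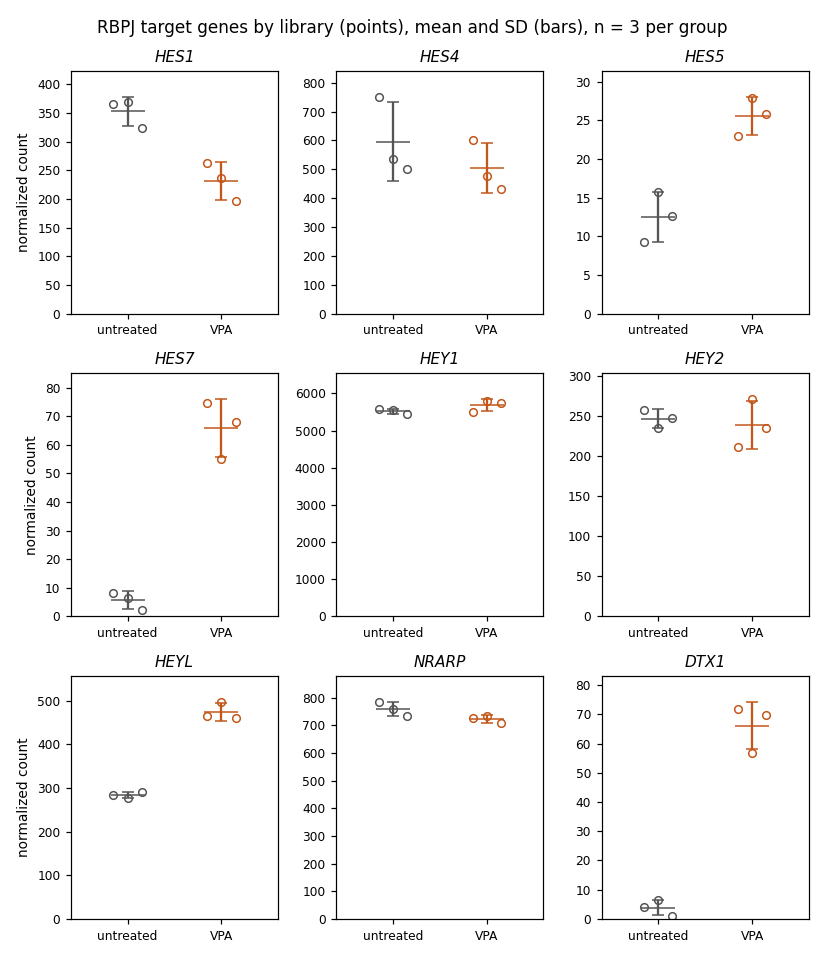
Normalized counts (y axis, linear from 0, a separate scale per panel) of 9 RBPJ target genes in 3 untreated and 3 VPA-treated libraries, with points for libraries and bars for mean and SD. HES1 drops from 353 to 232, HEYL, HES5, HES7 and DTX1 lie higher in every VPA-treated library, and HES4, HEY1, HEY2 and NRARP do not pass the test.

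Of these 9 target genes 7 matched the promoter table. Both TGGGAA and GTGGGAA were in 5 of the 7 promoters, and CGTGGGAA was in 2. In the HES1 promoter printed above, GTGGGAA began at position -85 and a further TGGGAA at -70, and in that of HES5 GTGGGAA began at -81 on the plus strand and at -224 on the minus strand. Of the 5 genes with GTGGGAA, HES5 and HEYL were called higher, HES1 was called lower, and HES4 and HEY2 did not pass the test. HEYL (position -178) and HEY2 (-5 and -213) were those with CGTGGGAA, at log2 fold changes of 0.74 and -0.05 (adjusted p = 6.18e-09 and 0.684 in edgeR). Of the 2 without TGGGAA, HES7 was called higher and NRARP did not pass.

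On the RNA side of the family, the m6A writer complex that RBM15 and RBM15B guide had 6 tested genes, 0 higher and 3 lower, with a median of -0.12. METTL3, the catalytic subunit, was at 2251 ± 64.6 and 2137 ± 44.8 (SD, n = 3 each, log2 fold change -0.07, adjusted p = 0.132 in edgeR), with a positive sign under library totals and ribosomal protein scaling. METTL14, its partner, had a log2 fold change of -0.00481 (adjusted p = 0.956). WTAP, the adaptor of the complex, had 2513, 2520 and 2618 normalized counts in untreated and 1937, 1979 and 1933 in VPA-treated libraries, well apart (log2 fold change -0.39, adjusted p = 4.94e-08 in edgeR). VIRMA and CBLL1, named for their calls, had -0.17 and -0.24, and 0.10 and 0.036 with ribosomal protein scaling. Of 7 m6A readers and erasers 0 were higher and 5 lower, with a median of -0.14, and YTHDF2, a reader that promotes RNA decay, had the lowest value (-0.26, adjusted p = 5.56e-06), which was 0.010 with ribosomal protein scaling. Of 6 other RBM15 partners 0 were higher and 4 lower, with a median of -0.28, led by NXF1, the main mRNA export receptor (-0.52, adjusted p = 8.42e-10).

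The remaining relatives were mixed. Of 3 other genes with a SPOC domain only DIDO1 passed, with a log2 fold change of -0.25 (adjusted p = 2.62e-05 in edgeR) and 0.026 under ribosomal protein scaling. Of 3 other SPEN partners, the bone transcription factors RUNX2 and MSX2 were higher (0.74 and 0.25) and SRA1, which gives the steroid receptor RNA activator, was lower (-0.53, adjusted p = 7.97e-08). Of 7 tested genes with MBT domains like L3MBTL3, 2 were higher and 3 lower, with a median of 0.02. L3MBTL4 had a log2 fold change of 0.81 (adjusted p = 0.000379) from 34.4 ± 6.58 to 60.4 ± 4.6 normalized counts (SD, n = 3 each), and L3MBTL2 had -0.43 (adjusted p = 4.69e-08). Of 7 tested kynurenine pathway genes, listed because of KYAT1, 4 were higher and 0 lower, with a median of 0.23. KYNU had 1.33 (adjusted p = 0.0148 in edgeR) at only 4.85 and 12.5 normalized counts, a call that was lost without untreated replicate 3 (0.86) or VPA replicate 3 (1.10). KYNU passed the filter on low counts through the VPA-treated libraries alone. The other genes called higher were QPRT (log2 fold change 0.92, adjusted p = 7.86e-12 in edgeR), AFMID (0.24) and KYAT3 (0.23).

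**Figure D5:**
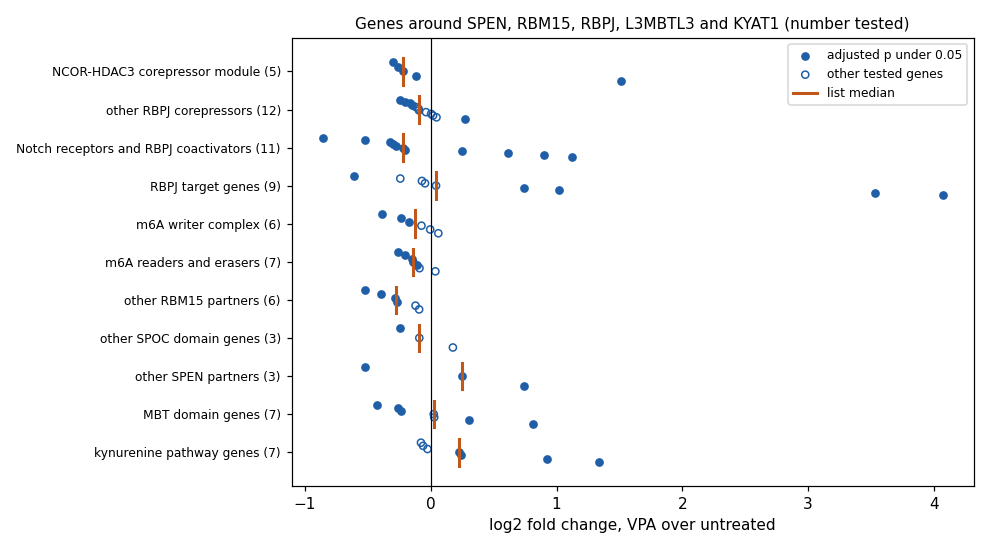
Log2 fold changes (x axis, VPA-treated over untreated, TMM scaling) of every tested gene in 11 lists around the members, with the number tested in parentheses, filled points for an adjusted p under 0.05 and a vertical mark at the list median. Most medians lie between -0.28 and 0.04. RBPJ target genes run from HES1 at -0.61 to DTX1 at 4.07, but DTX1 and HES7 (3.54) passed the filter on low counts through the VPA-treated libraries alone. The next highest target is HES5 at 1.02, which was short of that filter in untreated replicate 1 and passed it with the VPA-treated libraries. Notch receptors and RBPJ coactivators run from KAT2A at -0.86 to NOTCH3 at 1.13. Many of the small negative values turn positive with ribosomal protein scaling.

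Over the 6 libraries, the log2 levels most like those of SPEN were in BYSL, a ribosome assembly factor (Pearson r = 0.9995), SLIT2 (0.9993), HOXD11 (0.9993), SLC5A6 (0.9992) and ZIC2 (0.9991), among 11063 genes that averaged 100 or more. Their log2 fold changes ran from -0.41 for BYSL to -1.06 for SLIT2. Among the members r with SPEN was 0.95 for RBPJ, 0.94 for RBM15B, 0.89 for CIR1, 0.35 for RBM15, -0.70 for KYAT1 and -0.99 for L3MBTL3. The 6 points form 2 groups, so these values mostly record the difference between untreated and VPA-treated libraries, whatever its size, and are given with no test.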

How the data were processed

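RNA of HEK293T cells was sequenced in 3 untreated and 3 VPA-treated libraries from strand-specific mRNA preparations. The authors removed adapters and poor reads with SOAPnuke, aligned to hg38 with STAR (2.7.10b in the submitters' processing notes) and deposited raw counts per gene from HTSeq (2.0.1 in the same notes). The gene annotation and the strand setting are not given in the sources used here. The 5 summary lines in each of the 6 tables were dropped. They hold reads outside genes (6.80% to 7.69%), ambiguous reads (1.97% to 2.10%) and multiply aligned reads (2.81% to 2.92%). Replicates differed by more than sampling noise (chi-square per gene 1.62 to 4.80), so each library counted as 1 replicate.

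Differential expression was tested with edgeR 4.0.16 (R 4.3.3) using TMM scaling, filterByExpr (count minimum 10), a robust quasi-likelihood fit on treatment, adjustment by Benjamini-Hochberg and a prior count of 0.125. Calls used an adjusted p under 0.05, and the study's thresholds also ask for a log2 change of 1 or more in either direction. Standard errors (SE) were obtained as the size of the log2 change over the square root of F. The fit was tested on simulated data. Alternatives were DESeq2 1.42.0, 4 other scalings, 2 other filters, a prior count of 2, a replicate block and leaving out each library. The members and lists were chosen with earlier results of these data known. Named list genes are those past both thresholds, those past the adjusted p with the largest change each way, and core genes set by function. Genes named beyond these, such as ADI1, HEYL, HES4, NRARP, GPS2, SNW1, SIN3A, MAML2, MAML3, CREBBP, EP300, KAT2B, VIRMA, CBLL1, MSX2, QPRT, KYAT3, AFMID and HEY2, were named after their values were seen. Coordinates and promoters were looked up by symbol in RefSeq (GRCh38.p14), and transcript lengths (Ensembl canonical) and overlaps from GENCODE 44. Ratios of raw counts were compared by exact permutation tests on their logs, two-sided. A corepressor gene of the lists is not reported here. Genes on chromosome X that are listed at 0 could not be tested.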

Additional observations from a re-analysis of the deposited data

How the results depend on the processing

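The scaling of the libraries had the most effect on the members. With upper quartile scaling the log2 fold change was -1.13 for SPEN, 0.011 for RBM15 (reversed, adjusted p = 0.888) and -0.10 for RBPJ (adjusted p = 0.0529), KDM1A (0.027) and METTL14 (0.061) reversed, and 2 m6A readers and erasers were called. With library totals it was -1.06 for SPEN, -0.093 for RBM15B, -0.034 for RBPJ and -0.15 for CIR1, the last 3 no longer past the threshold, and 0.81 for KYAT1, now past it. RBM15 (0.077), NCOR1 (0.016), KDM1A (0.094), METTL3 (0.057) and METTL14 (0.13) reversed. Members called were then 2, and 1 at the study's thresholds (L3MBTL3), with 3 NCOR-HDAC3 genes and 2 m6A readers and erasers. With ribosomal protein scaling it was -0.92 for SPEN, -0.0072 for CIR1 and 0.95 for KYAT1, and reversed for RBM15 (0.22), RBM15B (0.050), RBPJ (0.11), NCOR1 (0.16), HDAC3 (0.014), CTBP1 (0.11), KDM1A (0.24), SAP30 (0.028), METTL3 (0.20), METTL14 (0.27), YTHDF2 (0.010) and DIDO1 (0.026). The calls were then 1 member at the study's thresholds, 2 NCOR-HDAC3 genes, 9 other RBPJ corepressors, 6 Notch receptors and coactivators, 8 RBPJ targets and 5 m6A writers. Each scaling shifts all genes, and the share of calls that were higher was 52.3% for TMM, 63.0% for the upper quartile, 73.9% for library totals and 91.8% for ribosomal protein genes. Requiring at least 10 counts in every library left out HES5, HES7 and DTX1 with 2 RBPJ targets called, and METTL14 was then at 0.018. Other SPOC domain genes called were 2 with DESeq2 size factors, without a filter and with the replicate block. The cause of these was not tested.

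Leaving out 1 library at a time gave -1.22 to -1.17 for SPEN, -0.12 to 0.013 for RBM15, 0.51 to 0.90 for KYAT1, 0.80 to 0.92 for L3MBTL3 and 1 to 2 other SPOC domain genes called, with 2 without untreated replicate 2. KDM1A ran from -0.089 to 0.0023 and METTL14 from -0.081 to 0.062, and neither of these passed the test in the full fit. Of the members' calls, only that of KYAT1 changed (without VPA replicate 1).

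Replicate numbers are shared between the groups, and the labels do not say whether they pair the libraries. Correlations of deviations were 0.20, 0.039 and 0.13 for same-numbered libraries and -0.15 to 0.030 for the others. The main fit used no pairing. With the replicate block SPEN was at -1.19 and L3MBTL3 at 0.87, and no member changed its call. At the adjusted p alone 5357 genes were then called higher and 5100 lower, against 5037 and 4591 without the block. Genes with few counts, such as KYAT1, DTX1 and HES7, have wide errors at this depth.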
